A study of Mus musculus with 6 samples.

Results

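The axon guidance genes described here are the ligands and receptors of the semaphorin, ephrin, Slit and netrin systems, measured by RNA sequencing in mouse embryonic fibroblasts (MEFs, connective-tissue cells grown out of embryos). They were taken by symbol: semaphorins of classes 3 to 7, plexins, neuropilins, ephrins, Eph receptors, Slits, Robos, netrins, Unc5 receptors, Dcc and Neo1. That gave 70 of the 52006 named rows of the deposited tables, with 69 different symbols, because Epha5 had 2 rows. Cells of 2 genotypes were compared with 3 libraries each, cells labelled Fbxw7 KO and cells labelled WT, both grown in DMEM with 15% FBS and 1% NEAA. Fbxw7 encodes the substrate-recognition part of a ubiquitin ligase that tags NOTCH, JUN, MYC and other substrates for breakdown. The labels did not give the strain, the age or number of embryos, the way in which Fbxw7 was deleted, or any promoter or recombinase used. Since nothing marked the 3 libraries of a genotype as separate cultures or animals, p-values refer to the spread among these libraries alone, and that spread may be technical.

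Guidance ligands tell a moving cell or growing axon where to go, and most of them can attract or repel depending on the receptor. Class 3 semaphorins are secreted and act through neuropilins that pair with plexins, whereas semaphorins of the other vertebrate classes are bound to membranes and mostly bind plexins directly. Ephrins are themselves membrane proteins, so Eph receptors signal between touching cells and often in both directions. Slits are secreted and bind Robos, and netrins bind Dcc, neogenin and the Unc5 receptors. All 4 systems also act outside the nervous system, in the migration of mesenchymal cells, in vessel growth and at tissue boundaries.

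Libraries held 55720129 to 64198455 estimated fragments as deposited. Fbxw7 transcripts were at 27.6, 27.4 and 24.1 CPM in the knockout libraries, against 29.5, 28.4 and 30.1 CPM in the WT libraries (CPM are fragment counts scaled by TMM to a common library size), and its log2 fold change of -0.16 ± 0.10 did not pass the test (adjusted p = 0.332, edgeR); the deleted exons were not given, so this value does not check the labels. Replicates 1 and 2 of a genotype were closer to each other than to replicate 3. Their median chi-square, a squared measure of difference, was 6.56 (knockout) and 7.42 (WT) times its value under sampling noise. For replicate 3 against them it was 31.6 and 42.6 times in the knockout and 26.8 and 29.6 times in WT. Fibroblast markers summed to 21165 to 23227 CPM in the knockout libraries and 18874 to 28168 CPM in WT libraries, and 2 of 9 tested rose. Neuronal markers summed to 7.96 to 18.4 CPM in the knockout and 25.4 to 28.0 CPM in WT, with Rbfox3 and Snap25 at 0 in all 6 libraries, and 3 of 5 tested fell. Schwann and glial markers summed to 2.30 to 3.11 CPM in the knockout and 2.53 to 3.05 CPM in WT, and 1 of 3 tested rose. Epithelial markers, all below the count filter, summed to 0.101 to 0.154 CPM in the knockout and 0.245 to 0.471 CPM in WT. Macrophage markers summed to 10.8 to 13.5 CPM in the knockout and 18.5 to 21.2 CPM in WT, with Adgre1 at 0, and 2 of 3 tested fell. Endothelial markers summed to 0.802 to 1.56 CPM in the knockout and 6.62 to 9.33 CPM in WT, with Tie1 and Cldn5 at 0; both tested members, Kdr and Tek, fell. The sex transcript Xist stood at 911 ± 126 CPM in the knockout and 1.47 ± 1.09 CPM in WT. The Y-linked Ddx3y, Eif2s3y, Kdm5d and Uty all fell, to 31.7%, 44.0%, 50.9% and 36.3% of the WT mean. They stayed present in every knockout library, with Ddx3y at 31.3, 24.0 and 35.9 CPM, against 109, 96.6 and 81.8 CPM in WT. Each knockout library thus held both Xist and Y-linked transcripts. The part of the marker transcripts in the results was not tested, and the sex transcripts, which moved with genotype, cannot be told apart from it.

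Of the 70 rows, 62 had enough fragments to be tested between genotypes, and 15 (24.2%) passed an adjusted p of 0.05 (edgeR quasi-likelihood test, Benjamini-Hochberg over all 16787 genes tested), beside 16.1% of all genes. Slit1, Efna1, Plxnd1, Plxnb1, Nrp2 and Epha7 rose in the knockout, and Sema5b, Sema3d, Unc5d, Ntn4, Sema3c, Sema3f, Ephb3, Nrp1 and Efnb1 fell. The 6 that rose were 9.68% of the members tested and the 9 that fell 14.5%, beside 8.03% higher and 8.08% lower over all genes. Changes of at least 2-fold made up 4 of the increases and 6 of the decreases, whereas 7.73% of all genes were called with a change of that size in either direction. Groups did not overlap for 10 members that were higher and 20 that were lower, where all genes gave 19.2% and 18.4% of those tested, 37.7% in both directions together. The median log2 fold change was -0.34 over the 62 members and 0.01 over all genes, and the median size regardless of sign was 0.65 against 0.26. Ligands accounted for 2 of the increases and 6 of the decreases among 33 tested, and receptors for 4 and 3 among 29. Counted without the libraries that stood apart, 14 members rose and 29 fell when replicate 3 of both genotypes was left out. In that setting 6993 of 16926 genes were called. With replicates 1 and 2 added together as 1 sample per genotype, 4 rose (Slit1, Efna1, Plxnd1 and Nrp2) and 2 fell (Sema5b and Unc5d). There, 484 of 17865 genes were called. The number that fell was 5 when any 1 of WT replicate 1, WT replicate 2 and knockout replicate 1 was left out, 18 when WT replicate 3 was left out and 14 when knockout replicate 3 was left out. Knockout replicate 3 moved the increases as well, of which there were 9 without it. The calls over all genes moved too. They were 1302 of 17220 without WT replicate 1, 1271 of 17204 without WT replicate 2 and 1169 of 17225 without knockout replicate 1. Without WT replicate 3 they were 3183 of 17229, and without knockout replicate 3 they were 3282 of 17175.

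**Figure D1:**
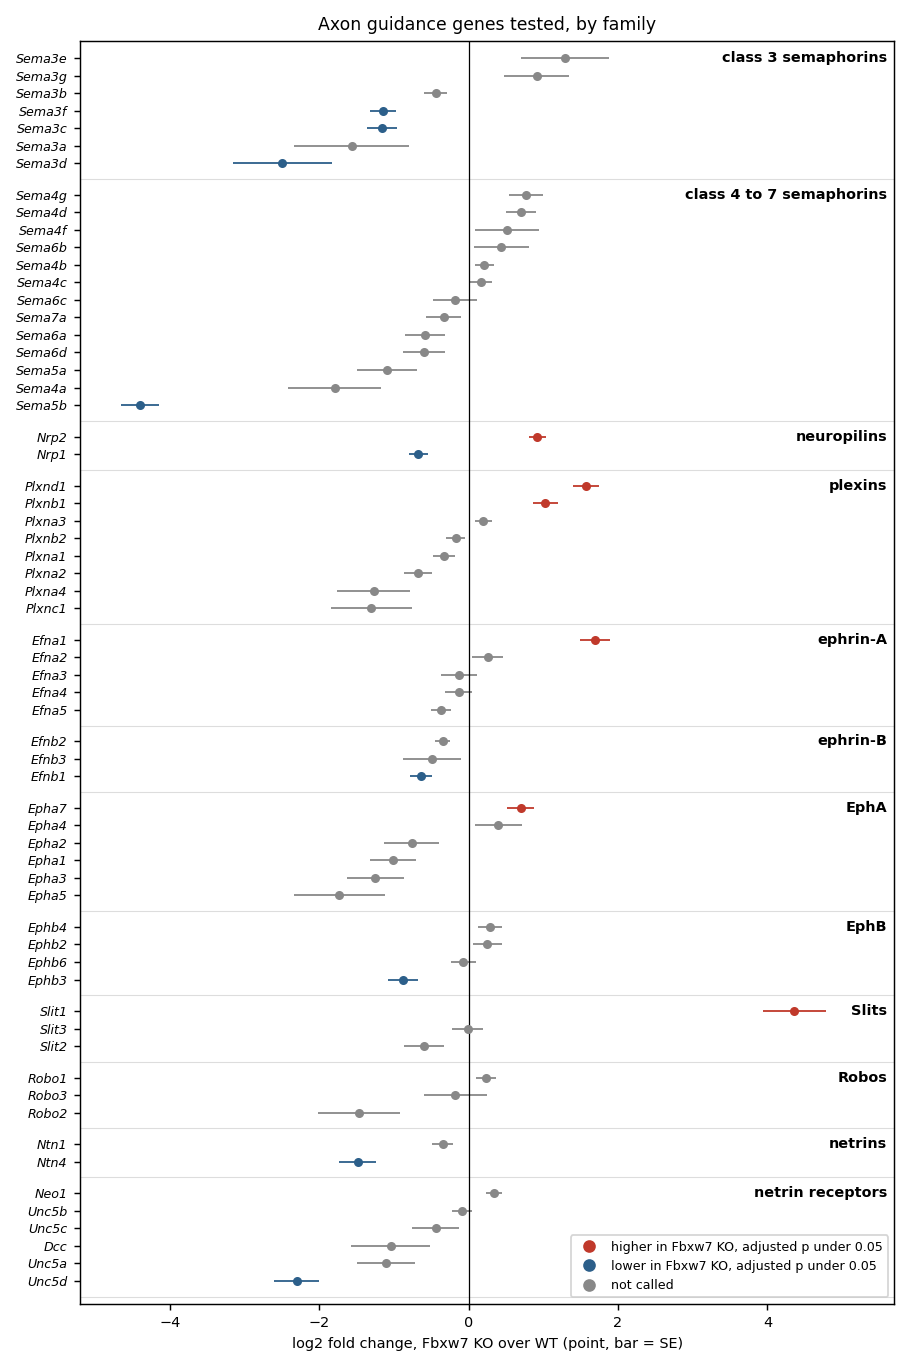
Log2 fold change (Fbxw7 KO over WT, horizontal axis) of the 62 tested members, grouped by family; points are estimates and bars 1 SE, with red for the 6 that rose, blue for the 9 that fell and grey for the rest. Slit1 lies farthest right at 4.36 ± 0.42 and Sema5b farthest left at -4.40 ± 0.26, and most families hold points on both sides of 0.

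Levels per transcript length showed which members the cells mainly expressed. On the FPKM scale (fragments divided by transcript length and by library size, from the deposited table), 46 of the 62 tested members averaged at least 1 FPKM and 21 at least 10 FPKM over the 6 libraries. Slit3 was the most abundant, at 255 ± 47.2 FPKM in the knockout and 264 ± 60.1 FPKM in WT (SD, n = 3 each). The plexin genes Plxnb2 (72.9 ± 10.01 FPKM in the knockout and 86.9 ± 8.08 FPKM in WT) and Plxna1 (51.97 ± 6.25 FPKM in the knockout and 69.2 ± 6.08 FPKM in WT) and the neuropilin gene Nrp2 (91.2 ± 4.12 FPKM in the knockout and 49.4 ± 5.13 FPKM in WT) came next, with Slit2 at 47.2 ± 5.63 FPKM in the knockout and 71.96 ± 28.1 FPKM in WT. Nrp2 exceeded Plxnb2 in the knockout and Plxnb2 exceeded Nrp2 in WT, in both cases by more than their SDs, whereas Plxna1 and Slit2 were within their SDs of each other in both genotypes. Unc5b was the most abundant netrin receptor gene, at 34.6 ± 3.82 FPKM in the knockout and 37.9 ± 6.40 FPKM in WT, and Neo1, the neogenin gene, stood at 31.2 ± 1.06 FPKM in the knockout and 25.7 ± 2.54 FPKM in WT. At the low end were 8 rows below the count filter. Epha10, Ntn5 and the second row of Epha5 had 0 fragments in all 6 libraries, which allows a level of up to 0.0490 to 0.0515 CPM per library (3 fragments; counting error only). Epha6, Epha8, Ephb1, Plxnb3 and Robo4, an endothelial Robo, had at most 4 fragments in any library.

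**Figure D2:**
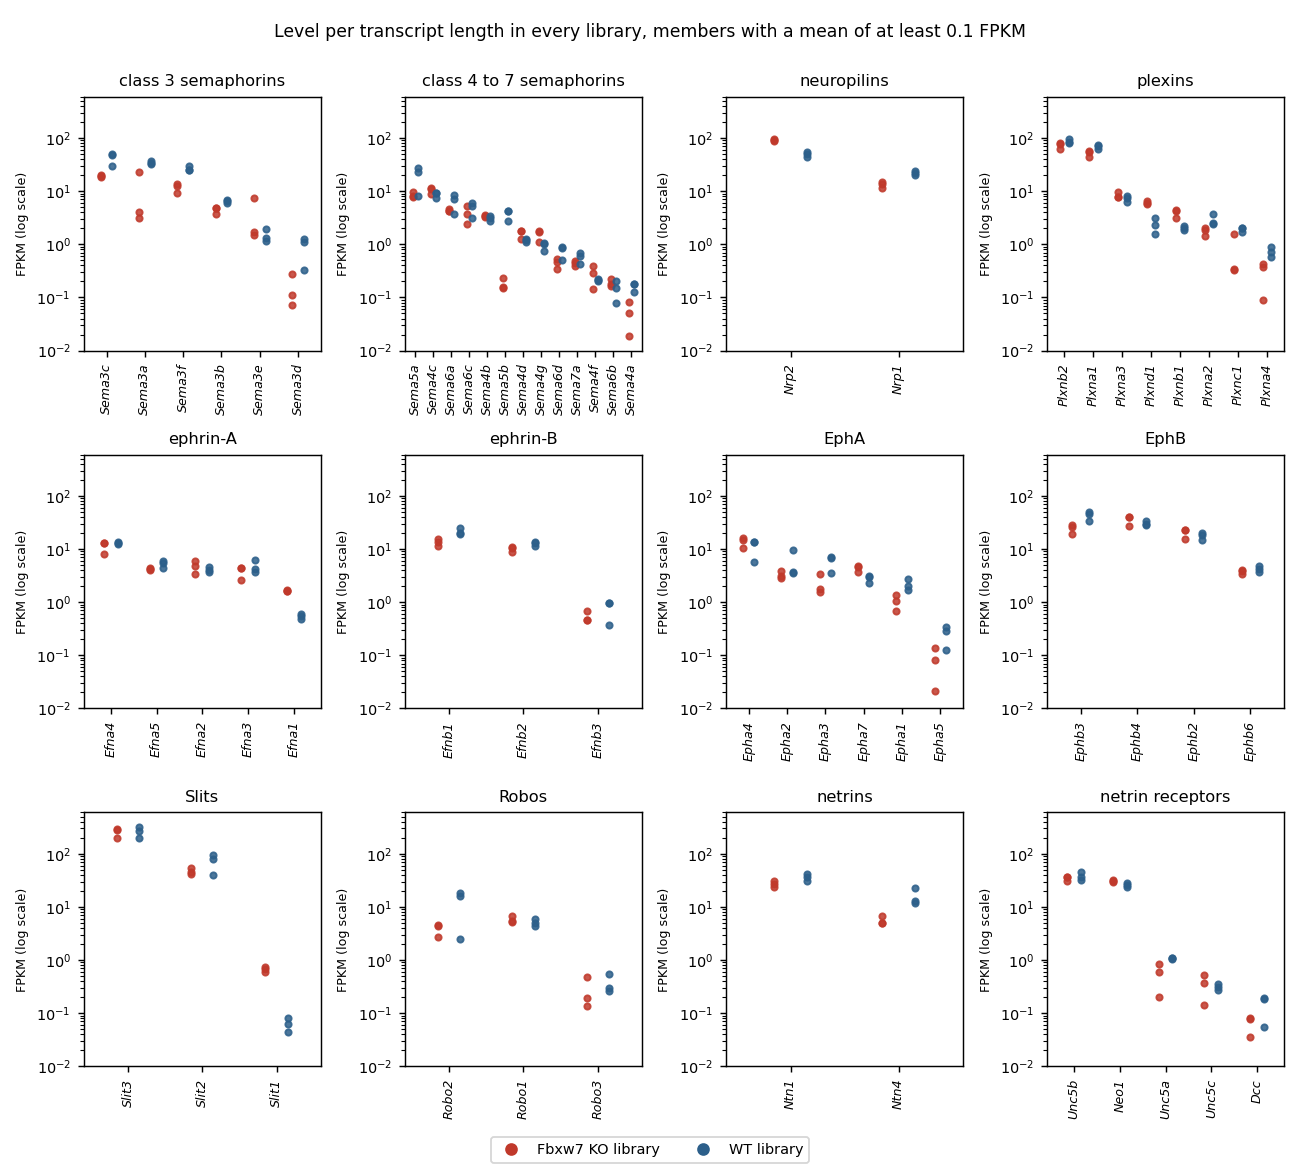
FPKM (log axis) of each member averaging at least 0.1 FPKM, by family, with a point for each Fbxw7 KO library (red) and each WT library (blue). Slit3, Plxnb2, Plxna1 and Nrp2 lie highest, and the red and blue points of Sema5b and Slit1 are farthest apart.

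Class 3 semaphorins, which are secreted, were lower in the knockout for 3 of 7 members tested, and none rose (edgeR). At an unadjusted p under 0.05, 4 members were lower and 0 higher, and DESeq2 also called 4 lower and 0 higher. Over all 16787 genes, DESeq2 called 3639 and edgeR 2705, so DESeq2 called more genes in general. For the unadjusted p, here and in other families, no share over all genes is given. That share is at least the 16.1% of all genes that passed the adjusted threshold. Without it, counts at an unadjusted p cannot set a family apart from genes in general. Sema3c (chromosome 5, 17574281 to 17730268, plus strand; here and for other genes, positions on mm10 from GENCODE M21), which guides neural crest cells in heart development, read 94.6, 85.2 and 86.2 CPM in the knockout libraries, against 234, 227 and 132 CPM in the WT libraries. The groups did not overlap, although WT replicate 3 was well below the other WT libraries. The log2 fold change was -1.16 ± 0.21 (SE; 95% interval -1.63 to -0.68; edgeR adjusted p = 0.0098), and the adjusted p was 0.118 with replicates 1 and 2 summed (1.23e-09 to 0.118 over its 18 alternatives). Sema3c was called in 16 of its 18 alternatives. For Sema3f (chromosome 9, 107681500 to 107710475, minus strand), a ligand of Nrp2, values were 39.2, 41.6 and 26.1 CPM in the knockout libraries, against 73.7, 88.1 and 74.8 CPM in the WT libraries. Every knockout library was below every WT library, at a log2 fold change of -1.15 ± 0.18 (95% interval -1.56 to -0.73; edgeR adjusted p = 0.00573; adjusted p = 0.0522 with replicates 1 and 2 summed; 2.15e-07 to 0.0522 over its 18 alternatives). Sema3d, also a secreted semaphorin, read 0.720, 0.488 and 1.93 CPM in the knockout libraries, against 8.45, 7.32 and 1.90 CPM in the WT libraries. Replicates 1 and 2 were far apart between genotypes, while replicate 3 of both genotypes was alike, so the groups overlapped. Its log2 fold change of -2.49 ± 0.66 (edgeR adjusted p = 0.0399) did not pass without WT replicate 1 (adjusted p = 0.131), WT replicate 2 (0.12), knockout replicate 1 (0.14) or knockout replicate 2 (0.128). Over its 16 alternatives, of which 8 called it, the adjusted p ran from 2.71e-10 to 0.32.

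Sema3a, the founding member of the class and a ligand of Nrp1, read 9.23, 6.14 and 59.8 CPM in the knockout libraries, against 74.3, 68.4 and 79.9 CPM in the WT libraries. Knockout replicates 1 and 2 were low and knockout replicate 3 was close to WT, and the log2 fold change of -1.57 ± 0.77 missed the threshold (95% interval -3.37 to 0.24; edgeR adjusted p = 0.215). Without knockout replicate 3 it was -3.28 (adjusted p = 0.000206; 1.60e-06 to 0.569 over its 18 alternatives). Sema3e, a ligand of plexin D1, read 11.4, 9.67 and 48.8 CPM in the knockout libraries, against 8.07, 8.20 and 12.2 CPM in the WT libraries. A single library, knockout replicate 3, stood above the other 5, and the log2 fold change of 1.30 ± 0.59 did not pass (edgeR adjusted p = 0.178). Sema3b (-0.44 ± 0.15) and Sema3g (0.91 ± 0.44, with at most 28 fragments in a library) did not pass either. Summed over the 7 genes, class 3 semaphorins stood at 42.4, 42.6 and 62.9 FPKM in the knockout libraries, against 116, 124 and 96.5 FPKM in the WT libraries. All 3 knockout sums were below all 3 WT sums.

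Among the semaphorins of classes 4 to 7, 1 of 13 tested members passed, and it changed more than any other member that fell. Sema5b (chromosome 16, 35541145 to 35664732, plus strand), a transmembrane semaphorin with thrombospondin repeats, read 0.943, 0.656 and 0.580 CPM in the knockout libraries, against 16.1, 18.2 and 11.98 CPM in the WT libraries. Each knockout library held under 1 CPM and each WT library at least 11.98 CPM. The log2 fold change was -4.40 ± 0.26 (95% interval -4.99 to -3.81; edgeR adjusted p = 9.54e-05), which put the knockout mean at 4.72% of WT. Its paralogue Sema5a, the most abundant of the group, read 82.5, 79.02 and 111 CPM in the knockout libraries, against 241, 262 and 77.5 CPM in the WT libraries. WT replicate 3 was at the knockout level, unlike the other WT libraries, and the log2 fold change of -1.09 ± 0.40 did not pass (edgeR adjusted p = 0.109), while without WT replicate 3 it was -1.47 (adjusted p = 0.00188; 1.07e-10 to 0.544 over its 18 alternatives). Class 4 members, which mostly signal through B-type plexins, had log2 fold changes above 0 for Sema4b, Sema4c, Sema4d, Sema4f and Sema4g. None of these passed in edgeR as used for the other families. Among the 13 genes, 2 were higher and 3 lower at an unadjusted p under 0.05, and DESeq2 called 2 higher, Sema4d and Sema4g, and 1 lower. Sema4d and Sema4g were also called by edgeR without knockout replicate 3, with no filter on low counts and with library size only. Sema4d, the ligand of plexin B1, came nearest, at 8.16, 7.90 and 5.85 CPM in the knockout libraries, against 4.37, 5.36 and 3.76 CPM in the WT libraries and a log2 fold change of 0.70 ± 0.20 (edgeR adjusted p = 0.0507). Its groups did not overlap. Sema4a, whose row also held a microRNA, had at most 27 fragments in a library and a log2 fold change of -1.79 ± 0.62 that did not pass (edgeR adjusted p = 0.0923).

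The neuropilins, co-receptors for class 3 semaphorins and for vascular endothelial growth factors, changed in opposite directions. Nrp2 (chromosome 1, 62703285 to 62818695, plus strand) read 626, 647 and 680.3 CPM in the knockout libraries, against 349, 379 and 302 CPM in the WT libraries. The lowest knockout library exceeded the highest WT library, at a log2 fold change of 0.92 ± 0.11 (95% interval 0.66 to 1.19; edgeR adjusted p = 0.00233). Nrp1 (chromosome 8, 128358604 to 128503363, plus strand) read 52.4, 44.6 and 57.6 CPM in the knockout libraries, against 82.4, 91.02 and 72.6 CPM in the WT libraries. The knockout libraries were all lower, at -0.67 ± 0.13 (95% interval -0.97 to -0.37; edgeR adjusted p = 0.0128). This call was lost without WT replicate 1 (adjusted p = 0.0504), WT replicate 2 (0.0533) or knockout replicate 1 (0.0514), and with replicates 1 and 2 summed (0.137). Over its 18 alternatives the adjusted p ran from 1.67e-06 to 0.137. The row of Nrp1 also held a microRNA. In FPKM, Nrp2 was 6.39, 7.84 and 6.41 times as high as Nrp1 in the knockout libraries, against 2.28, 2.23 and 2.24 times in the WT libraries. The ratio was thus nearly the same in the 3 WT libraries, including replicate 3, and higher in each knockout library. Of 8 endothelial markers, Kdr and Tek were tested and lower in the knockout as Nrp1 was, while Pecam1, Cdh5, Emcn and Esam were below the count filter with overlapping groups and Tie1 and Cldn5 were at 0; in bulk RNA, fewer cells of a type and less RNA per cell cannot be told apart.

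Plexins, the signalling receptors of semaphorins, rose for 2 of 8 tested members, and none fell (edgeR). At an unadjusted p under 0.05, 3 were lower, and DESeq2 called 2 lower, Plxna2 and Plxna4. Plxnd1 (chromosome 6, 115954811 to 115995005, minus strand), the receptor of Sema3e, read 38.9, 42.6 and 30.7 CPM in the knockout libraries, against 10.4, 12.96 and 14.4 CPM in the WT libraries. Knockout libraries lay well above WT, with a log2 fold change of 1.57 ± 0.17 (95% interval 1.18 to 1.96; edgeR adjusted p = 0.00129). Plxnb1 (chromosome 9, 109095389 to 109119917, plus strand), the receptor of Sema4d, read 26.8, 26.6 and 18.3 CPM in the knockout libraries, against 11.5, 12.8 and 10.8 CPM in the WT libraries. It rose by 1.03 ± 0.17 on the log2 scale (95% interval 0.64 to 1.42; edgeR adjusted p = 0.00705; adjusted p = 0.0982 with replicates 1 and 2 summed; 2.44e-07 to 0.0982 over its 18 alternatives). Plxnb1 was called in 16 of these 18. The gene shares 257 exon bases with an antisense transcript, and no source used here states whether counting was by strand. The abundant plexins did not pass: Plxnb2 read 482, 493 and 389.9 CPM in the knockout libraries, against 482, 566 and 491 CPM in the WT libraries (-0.17 ± 0.13; 95% interval -0.47 to 0.12), with overlapping groups. Plxna1, a partner of neuropilins, read 543, 544 and 397 CPM in the knockout libraries, against 564, 650.0 and 654 CPM in the WT libraries, all knockout libraries being lower, but its change of -0.33 ± 0.15 did not pass (edgeR adjusted p = 0.167), and it shares 970 exon bases with an antisense gene. Plxna2, a receptor of class 6 semaphorins as well, missed the threshold at -0.68 ± 0.19 (edgeR adjusted p = 0.0506). Plxnc1, the receptor of Sema7a, read 2.76, 2.34 and 11.01 CPM in the knockout libraries, against 12.2, 12.8 and 14.7 CPM in the WT libraries. Knockout replicate 3 was close to WT here too, and the change of -1.30 ± 0.54 did not pass (edgeR adjusted p = 0.147) except without that library (-2.38; adjusted p = 0.0003; 8.17e-10 to 0.507 over its 18 alternatives). Plxna4, with few fragments in knockout replicate 3, changed by -1.27 ± 0.48 (edgeR adjusted p = 0.116; adjusted p = 0.0307 without that library; 1.66e-05 to 0.352 over its 16 alternatives) and Plxna3 by 0.20 ± 0.11 (edgeR adjusted p = 0.273).

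Promoter sequences from RefSeq (GRCm38.p6, the same assembly as mm10) are shown for the neuropilin pair, which moved in opposite directions, and for Plxnd1, the plexin that rose most. Each runs 5′ to 3′ from 250 to 33 bases before the RefSeq start, and none overlaps an annotated exon; the window of Nrp1 lies downstream of the gene start given here, in an intron of a transcript that begins farther upstream. Capitals mark GGGCGG or its complement.
Plxnd1 (chr6:115995038-115995255, minus strand): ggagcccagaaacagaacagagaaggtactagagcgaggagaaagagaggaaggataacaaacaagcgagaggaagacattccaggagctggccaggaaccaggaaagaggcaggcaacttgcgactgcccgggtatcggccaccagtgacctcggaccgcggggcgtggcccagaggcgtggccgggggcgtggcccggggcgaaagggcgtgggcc
Nrp2 (chr1:62703067-62703284, plus strand): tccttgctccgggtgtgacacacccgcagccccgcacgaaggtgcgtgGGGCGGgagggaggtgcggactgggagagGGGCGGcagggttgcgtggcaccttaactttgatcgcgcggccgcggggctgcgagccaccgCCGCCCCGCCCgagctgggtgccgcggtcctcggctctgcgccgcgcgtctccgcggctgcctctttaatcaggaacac
Nrp1 (chr8:128358823-128359040, plus strand): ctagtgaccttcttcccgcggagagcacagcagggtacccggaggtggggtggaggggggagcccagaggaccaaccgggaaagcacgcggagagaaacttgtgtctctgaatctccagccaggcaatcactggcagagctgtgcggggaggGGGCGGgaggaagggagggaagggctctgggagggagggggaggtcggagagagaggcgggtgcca
Sequences were searched on both strands for CACGTG (the E-box that MYC binds), TGANTCA (the AP-1 element), TGGGAA (the core of the NOTCH-responsive RBPJ element) and GGGCGG (the GC box). None of the first 3 was found in these windows. The GC box occurred 4 times in the Nrp2 window, with 2 of the matches overlapping, 1 time in that of Nrp1 and not in that of Plxnd1. Over 32851 promoter windows of 218 bases, 4.95% held CACGTG, 6.05% TGANTCA, 19.3% TGGGAA and 28.2% GGGCGG. Of 75 windows of 59 members in the table, 2.67%, 2.67%, 16.0% and 61.3% held them. GC content was 63.8% for Plxnd1, 72.5% for Nrp2 and 66.1% for Nrp1.

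**Figure D3:**
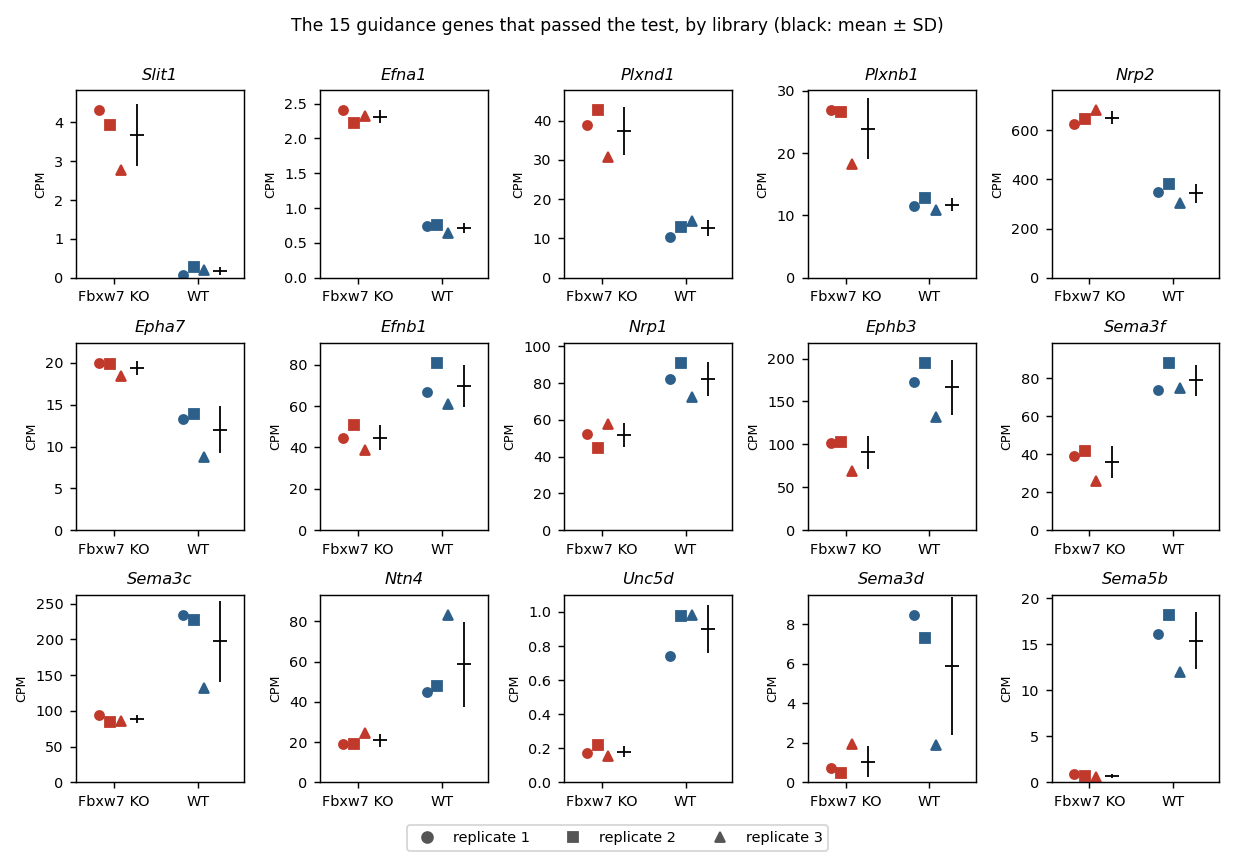
CPM (vertical axis, from 0) of the 15 members that passed the test, from the largest increase to the largest decrease, in the 3 Fbxw7 KO libraries (red) and the 3 WT libraries (blue); marker shapes give the replicate number and black bars the mean ± SD. The genotypes are apart in every panel except that of Sema3d, where both replicate 3 libraries lie at about the same level.

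Ephrins, the membrane-bound ligands of Eph receptors, gave 1 increase among the 5 A-type and 1 decrease among the 3 B-type genes. DESeq2 called 1 A-type gene higher and 2 B-type genes lower, Efnb1 and Efnb2. With an unadjusted p under 0.05 in edgeR, 1 A-type gene was higher and 1 lower, and 2 B-type genes were lower. Efna1 (chromosome 3, 89271733 to 89281142, minus strand), a ligand of EphA2, read 2.40, 2.22 and 2.32 CPM in the knockout libraries, against 0.739, 0.763 and 0.638 CPM in the WT libraries. The libraries of each genotype were tightly grouped, and the log2 fold change was 1.69 ± 0.20 (95% interval 1.23 to 2.16; edgeR adjusted p = 0.00185). At these levels the WT libraries held 39 to 46 fragments. Efna4, the most abundant A-type ephrin at 11.4 ± 2.74 FPKM in the knockout and 12.9 ± 0.552 FPKM in WT, did not pass (-0.13 ± 0.18; 95% interval -0.54 to 0.28), and neither did Efna2 (0.26 ± 0.21), Efna3 (-0.12 ± 0.24) or Efna5 (-0.37 ± 0.13). Efna3 and Efna4 each share exon bases with an antisense transcript. Efnb1 (chromosome X, 99136130 to 99148991, plus strand), the X-linked ephrin known for its role in craniofacial boundaries and, like Xist, on a chromosome whose dose differs between the sexes, read 44.7, 50.96 and 38.6 CPM in the knockout libraries, against 66.8, 80.9 and 61.04 CPM in the WT libraries. All knockout libraries were below WT at -0.64 ± 0.14 (95% interval -0.97 to -0.31; edgeR adjusted p = 0.0227). The call was lost without WT replicate 1 (adjusted p = 0.0656), WT replicate 2 (0.0794) or knockout replicate 1 (0.0826), and with replicates 1 and 2 summed (0.131). In limma on FPKM without a filter the call was lost too. Over the 18 alternatives of Efnb1, of which 13 called it, the adjusted p ran from 9.47e-05 to 0.131. Efnb2, known from arterial endothelium, was lower in all knockout libraries, at 51.2, 49.97 and 44.7 CPM in the knockout libraries, against 57.3, 60.4 and 67.4 CPM in the WT libraries, and missed the threshold (-0.34 ± 0.10; edgeR adjusted p = 0.0569). Efnb3 changed by -0.49 ± 0.39 (edgeR adjusted p = 0.439).

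Of the EphA receptors, kinases that bind A-type ephrins, 6 of 10 rows were tested and 1 rose. At an unadjusted p under 0.05, 1 was higher and 3 lower, and DESeq2 called 1 higher and 3 lower, Epha1, Epha3 and Epha5. Epha7 (chromosome 4, 28813131 to 28967499, plus strand) read 20.02, 19.8 and 18.5 CPM in the knockout libraries, against 13.3, 13.9 and 8.79 CPM in the WT libraries. The groups did not overlap, and the log2 fold change of 0.70 ± 0.18 was the smallest of the increases (95% interval 0.28 to 1.11; edgeR adjusted p = 0.0368). It was not called without WT replicate 1 (adjusted p = 0.0779), WT replicate 2 (0.0597), knockout replicate 1 (0.116) or knockout replicate 2 (0.0976), or with replicates 1 and 2 summed (0.178). Each limma setting on FPKM lost the call too. Over the 18 alternatives of Epha7, of which 10 called it, the adjusted p ran from 0.00048 to 0.178. Epha4, the most abundant of them, read 94.9, 87.2 and 67.1 CPM in the knockout libraries, against 75.5, 81.2 and 32.6 CPM in the WT libraries. WT replicate 3 was lower than the rest, the groups overlapped, and the change was 0.40 ± 0.31 (edgeR adjusted p = 0.437). Epha3 read 8.63, 8.31 and 18.9 CPM in the knockout libraries, against 34.3, 33.99 and 16.8 CPM in the WT libraries. Here both replicate 3 libraries were alike while replicates 1 and 2 were apart, and the change of -1.25 ± 0.39 did not pass (edgeR adjusted p = 0.0656), although it did without WT replicate 3 (adjusted p = 0.0291) or knockout replicate 3 (0.019). Over its 18 alternatives the adjusted p ran from 1.78e-10 to 0.431. Epha2, the main receptor of ephrin-A1 in many epithelia, read 11.8, 12.5 and 13.1 CPM in the knockout libraries, against 13.1, 14.2 and 36.2 CPM in the WT libraries, and only WT replicate 3 was high. Epha1 (-1.01 ± 0.31; edgeR adjusted p = 0.062), which shares exon bases with the opposite-strand gene Zyx, and Epha5 (-1.73 ± 0.61; edgeR adjusted p = 0.095), with at most 106 fragments in a library, did not pass.

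EphB receptors, which bind B-type ephrins, gave 1 decrease among 4 genes tested. In summed FPKM they stood at 84.9 ± 16.9 in the knockout and 95.5 ± 13.6 in WT, above the EphA genes at 24.7 ± 2.40 in the knockout and 27.6 ± 3.21 in WT. Ephb3 (chromosome 16, 21204755 to 21223305, plus strand), known for cell positioning in the intestinal crypt, read 102, 102 and 68.4 CPM in the knockout libraries, against 173, 195 and 132 CPM in the WT libraries. Each knockout library was below each WT library, with a log2 fold change of -0.88 ± 0.20 (95% interval -1.33 to -0.42; edgeR adjusted p = 0.0222). Without WT replicate 1 the adjusted p was 0.077, without WT replicate 2 0.0826, without knockout replicate 1 0.0534 and with replicates 1 and 2 summed 0.143 (3.96e-07 to 0.143 over its 18 alternatives). Ephb3 was called in 12 of these 18, and limma on log2(FPKM + 1) lost it with and without the FPKM filter. Ephb4, the partner of ephrin-B2 in vessels, read 178, 179 and 121 CPM in the knockout libraries, against 124, 143 and 125 CPM in the WT libraries, and Ephb2 read 129, 128 and 85.2 CPM in the knockout libraries, against 101, 109.9 and 76.7 CPM in the WT libraries. Groups overlapped for both, with changes of 0.29 ± 0.16 (95% interval -0.08 to 0.65) and 0.25 ± 0.19 (95% interval -0.19 to 0.70). The order of the 3 receptors by FPKM differed between genotypes. Ephb3 stood at 28.00, 26.3 and 18.8 FPKM in the knockout libraries and 45.3, 50.7 and 33.7 FPKM in the WT libraries, and Ephb4 at 40.1, 40.6 and 27.5 FPKM in the knockout libraries and 28.6, 33.03 and 29.3 FPKM in the WT libraries. Ephb4 exceeded Ephb3 in each knockout library, by 1.43, 1.54 and 1.46 times, and was at 0.631, 0.651 and 0.871 times Ephb3 in the WT libraries. Ephb6, which lacks kinase activity, changed by -0.07 ± 0.17 (95% interval -0.46 to 0.32).

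Slit ligands ranged from the most abundant member to one that averaged under 1 FPKM. Slit1 (chromosome 19, 41600257 to 41743665, minus strand), best known from midline repulsion in the nervous system, read 4.31, 3.94 and 2.78 CPM in the knockout libraries, against 0.0672, 0.266 and 0.196 CPM in the WT libraries. The knockout libraries held 251, 234 and 163 fragments and the WT libraries 4, 16 and 12, so that the size of the change rests on few fragments in WT. Its log2 fold change was 4.36 ± 0.42 (95% interval 3.39 to 5.34; edgeR adjusted p = 0.000835), the largest of any member that rose. Over its 16 alternatives, which all called it, the log2 fold change ran from 0.66 to 4.77, so its size depended on the processing. In FPKM, Slit1 stood at 0.673 ± 0.0650 in the knockout and 0.0619 ± 0.0180 in WT, far below its paralogues. The ratio between genotypes was smaller in FPKM than in CPM. Slit2 read 329.6, 326 and 343 CPM in the knockout libraries, against 582, 639 and 284 CPM in the WT libraries. WT replicates 1 and 2 were high and WT replicate 3 was below all 3 knockout libraries, and the change of -0.59 ± 0.27 did not pass (95% interval -1.21 to 0.03; edgeR adjusted p = 0.175). Slit3, associated with diaphragm and vessel development, read 1563, 1574 and 1112 CPM in the knockout libraries, against 1472, 1743 and 1074 CPM in the WT libraries, with overlapping groups and a change of -0.01 ± 0.21 (95% interval -0.50 to 0.47). Of the 3 Robo genes tested, 0 passed in edgeR, 1 (Robo2) had an unadjusted p under 0.05, and DESeq2 called 0. Robo1 read 43.6, 40.5 and 50.95 CPM in the knockout libraries, against 37.9, 43.7 and 32.9 CPM in the WT libraries, and its groups overlapped (0.24 ± 0.14; 95% interval -0.08 to 0.55). Robo2 read 16.7, 16.8 and 11.8 CPM in the knockout libraries, against 55.8, 58.98 and 10.3 CPM in the WT libraries. In WT replicates 1 and 2 it was over 3 times the knockout level, while WT replicate 3 was below all 3 knockout libraries. The change of -1.46 ± 0.55 did not pass (edgeR adjusted p = 0.114) except without WT replicate 3 (-1.93; adjusted p = 0.000853; 1.09e-10 to 0.481 over its 18 alternatives). Robo3, a divergent receptor, had at most 54 fragments in a library (-0.18 ± 0.42).

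Netrins, laminin-related secreted cues, gave 1 decrease among 2 tested genes. In edgeR 2 were lower at an unadjusted p under 0.05, and DESeq2 called 1 lower. Ntn4 (chromosome 10, 93640681 to 93747207, plus strand), a basement membrane netrin, read 19.1, 19.1 and 24.7 CPM in the knockout libraries, against 45.1, 48.01 and 83.00 CPM in the WT libraries. All WT libraries were higher, WT replicate 3 most of all, and the log2 fold change was -1.48 ± 0.24 (95% interval -2.05 to -0.92, edgeR adjusted p = 0.00691). With replicates 1 and 2 summed, the adjusted p of Ntn4 was 0.0707. Over its 18 alternatives, of which 16 called it, the adjusted p ran from 8.58e-09 to 0.0707. Its RefSeq promoter window, shown as that of a called ligand beside those of the receptors, has GC boxes in capitals; like that of Nrp1, it lies downstream of the annotated gene start, in an intron of a transcript that begins farther upstream.
Ntn4 (chr10:93640799-93641016, plus strand): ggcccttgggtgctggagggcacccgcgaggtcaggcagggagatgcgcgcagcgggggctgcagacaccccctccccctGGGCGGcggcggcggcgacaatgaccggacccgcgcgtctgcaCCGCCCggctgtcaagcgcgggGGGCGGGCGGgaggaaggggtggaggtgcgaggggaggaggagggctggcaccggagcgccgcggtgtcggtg
It held 4 GC boxes, of which 2 overlapped, none of the other 3 motifs, and a GC content of 77.5%. Ntn1, the classical axon attractant and the more abundant of the pair, read 139, 157 and 129 CPM in the knockout libraries, against 186, 205 and 149.6 CPM in the WT libraries; its groups overlapped slightly and the change of -0.35 ± 0.14 did not pass (edgeR adjusted p = 0.127). Of 6 netrin receptor genes tested, 1 fell. DESeq2 called Neo1 higher and Unc5a and Unc5d lower. In edgeR, 1 was higher and 2 lower at an unadjusted p under 0.05. Unc5d (chromosome 8, 28646717 to 29219636, minus strand) was scarce, at 0.172, 0.219 and 0.154 CPM in the knockout libraries, against 0.739, 0.979 and 0.981 CPM in the WT libraries, which corresponded to 9 to 13 fragments in the knockout libraries and 44 to 60 in the WT libraries. The groups did not overlap (-2.30 ± 0.30; 95% interval -3.00 to -1.60; edgeR adjusted p = 0.00287). Unc5b, the abundant repulsive receptor, read 238, 227 and 193 CPM in the knockout libraries, against 199, 229.6 and 271 CPM in the WT libraries (-0.09 ± 0.14; 95% interval -0.41 to 0.23), with overlapping groups. Neo1, which also binds repulsive guidance molecules, was higher in all 3 knockout libraries, at 184, 176 and 172 CPM in the knockout libraries, against 142, 154 and 124 CPM in the WT libraries, and missed the threshold (0.34 ± 0.10; edgeR adjusted p = 0.0639). Dcc, the main attractive netrin receptor of neurons, was near the limit of detection at 12 to 27 fragments in the knockout and 17 to 59 in WT (-1.04 ± 0.53; edgeR adjusted p = 0.225). Unc5a (-1.11 ± 0.39; edgeR adjusted p = 0.093) and Unc5c (-0.44 ± 0.32; edgeR adjusted p = 0.389) did not pass.

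Replicate 3 of both genotypes stood apart for many guidance genes. Among the 62 tested, 12 differed more than 2-fold between knockout replicate 3 and the mean of knockout replicates 1 and 2, and 12 did so in WT; that was 19.4% in both cases, beside 7.48% (knockout) and 7.68% (WT) of all genes. For 17 members (27.4%; all genes, 35.8%) the difference between genotypes had the opposite sign in replicate 3 from that in replicates 1 and 2, and 1 of these, Sema3d, was among the 15 called. Without WT replicate 3, the calls added were Dcc, Efna5, Epha3, Ntn1, Robo2, Sema5a, Sema6a, Sema6d and Slit2. Without knockout replicate 3 they were Epha3, Ephb4, Plxna4, Plxnc1, Sema3a, Sema4d, Sema4g and Unc5a. In both cases the 15 calls made with all 6 libraries were kept.

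**Figure D4:**
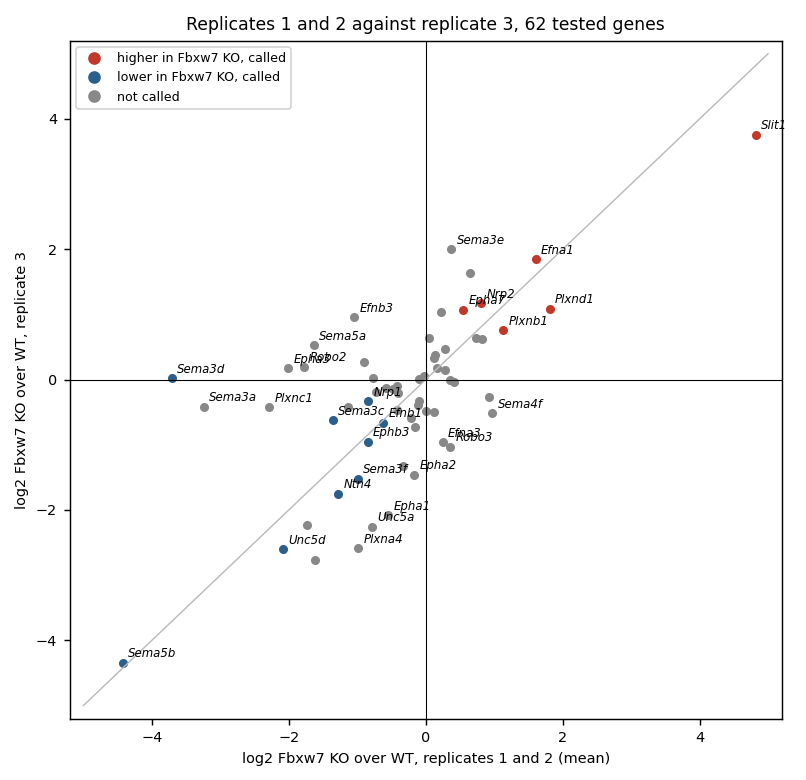
Log2 difference between Fbxw7 KO and WT in replicate 3 (vertical axis) against that in the mean of replicates 1 and 2 (horizontal axis) for the 62 tested members; red and blue mark the called increases and decreases, and the grey line marks equal values. Sema5b lies near the line and Slit1 at 4.82 and 3.76, whereas Sema3d, Sema3a, Epha3, Robo2 and Sema5a lie far below 0 on the horizontal axis and between -0.42 and 0.52 on the vertical axis.

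Genes that carry or modify guidance signals were examined in a list of 74, of which 64 were tested, 7 rose and 12 fell (all genes, 8.03% and 8.08%). The list's median log2 fold change was -0.09, beside 0.01 over all genes. Of the 41 tested genes acting downstream of the receptors, 3 rose and 9 fell, and of the 23 tested modifiers, 4 rose and 3 fell. Among those that fell, Mical1, an oxidase that takes actin filaments apart below plexins, stood at 41.8 ± 3.47 CPM in the knockout and 64.9 ± 4.18 CPM in WT (-0.63 ± 0.10), and Dpysl3, a collapsin response mediator, at 502 ± 96.7 CPM in the knockout and 897 ± 115 CPM in WT (-0.84 ± 0.16). Another mediator, Dpysl4, was at 0.142 ± 0.0852 CPM in the knockout and 1.25 ± 0.428 CPM in WT (-3.12 ± 0.46). It held 14, 6 and 5 fragments in the knockout libraries and 52, 70 and 105 in the WT libraries. Ablim1, an actin-binding protein whose relative in the worm Caenorhabditis elegans acts in netrin signalling, had the smallest adjusted p of the list, at 52.9 ± 2.06 CPM in the knockout and 121 ± 5.31 CPM in WT (-1.19 ± 0.08; edgeR adjusted p = 0.000261). The Slit-Robo GTPase activators Srgap3 (29.3 ± 6.38 CPM in the knockout and 56.9 ± 3.83 CPM in WT; -0.96 ± 0.16) and Srgap1 (-1.15 ± 0.23; edgeR adjusted p = 0.0156) also fell. Among modifiers at the membrane that fell, Flrt2, a ligand of Unc5 receptors, stood at 166 ± 26.6 CPM in the knockout and 341 ± 18.3 CPM in WT (-1.04 ± 0.13) and the growth factor receptor gene Kdr, a partner of neuropilins, at 0.703 ± 0.261 CPM in the knockout and 5.59 ± 2.26 CPM in WT (-2.99 ± 0.39). Genes that rose included Chl1, an adhesion molecule that partners neuropilin-1, at 25.1 ± 14.8 CPM in the knockout and 0.438 ± 0.181 CPM in WT (5.84 ± 0.53), and Rgma, a ligand of neogenin, at 83.5 ± 4.48 CPM in the knockout and 51.2 ± 7.79 CPM in WT (0.70 ± 0.12). The actin regulator Enah (0.45 ± 0.09), the kinase gene Fyn (0.35 ± 0.08), Flrt1 (0.78 ± 0.17), Cd72, a receptor of Sema4d (2.02 ± 0.52), and the plexin-A-associated kinase gene Fes (0.95 ± 0.26) rose as well. Cd72 was scarce, at 46, 25 and 13 fragments in the knockout libraries and 7 in each WT library. With replicates 1 and 2 summed within a genotype, 1 gene of this list rose and 4 fell, beside 484 of 17865 genes called. Without replicate 3 of both genotypes 19 rose and 21 fell, beside 6993 of 16926 genes called. Increases numbered 2 when WT replicate 1, WT replicate 2 or knockout replicate 1 was left out and 3 when knockout replicate 2 was left out. Decreases numbered 7 when WT replicate 1 or WT replicate 2 was left out and 6 when knockout replicate 2 was left out.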

How the data were processed

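RNA of mouse embryonic fibroblasts was sequenced in 3 Fbxw7 KO and 3 WT libraries made with an Illumina TruSeq protocol, per the labels. The submitters' processing notes name TopHat2 2.1.1, SAMtools 1.5, deepTools, Cufflinks 2.2.1 and the build mm10; no source used here names the annotation. Per the file headers, the authors deposited 2 Cufflinks-style tables, one with estimated counts (expected fragments per locus) and one with FPKM (fragments divided by transcript length and by library size). Among the deposited estimated counts, 89.0% to 89.6% of each library's values above 0 and up to 1000 fragments were whole multiples of a step (tolerance 0.05), so that libraries had been multiplied by a factor each. Estimated counts divide reads among similar transcripts, and a row can hold more than 1 gene name.

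Of 53323 loci, 1317 without a name (at most 3.13e-05% of a library) and those with the status HIDATA (12, of which 9 named) were left out, while 55 with the status FAIL were kept; no guidance gene had either status. Another 36 per-sample columns of the tables (variances, interval bounds and the statuses of the FPKM table) were not used. The design had assumed counts; the estimated counts were rounded, and edgeR 4.0.16 was run under R 4.3.3 (genes kept by filterByExpr, TMM scaling, robust quasi-likelihood model with genotype alone, two-sided, Benjamini-Hochberg over all genes tested, threshold 0.05). SE is the log2 fold change over the square root of F, and intervals are at 95%. The fit was tested on simulated data of 16787 genes. It recovered 9% of 1.5-fold, 50% of 2-fold and 86% of 4-fold changes, with 10 false calls. A gene that did not pass may thus have changed by such an amount. All simulated 2-fold changes were decreases and all 4-fold changes increases. Far fewer genes were changed than were called in the data, and replicate 3 was not made to stand apart. Recovery in the data may therefore differ. Alternatives were other scalings and filters, the Wald test of DESeq2 1.42.0, a replicate block, libraries left out or summed, and limma 3.58.1 on log2(FPKM + 1) or log2(FPKM + 0.1). Counts divided by each library's step were added after seeing the data. Library pairs were compared by chi-square over genes with at least 50 fragments.

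The guidance genes, the pathway list and the marker lists were chosen with earlier results of these data known. Each called guidance gene, the most abundant gene of each family, those changed at least 2-fold without passing, members of families without a call, and up to 8 pathway genes per direction with the smallest adjusted p were named by rule; the other genes with values were added after their values were seen. Positions and shared exon bases came from GENCODE M21 (mm10), promoters from RefSeq (GRCm38.p6). Intervals cover the error among these libraries only; limits at 0 fragments cover counting error only, and no source used here mentions molecular identifiers.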

Additional observations from a re-analysis of the deposited data

How the results depend on the processing

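Among the guidance genes, 6 rose and 9 fell with all 6 libraries. Leaving out 1 library at a time gave 5 to 9 that rose and 5 to 18 that fell, and in the pathway list 2 to 9 that rose and 6 to 16 that fell. With replicate 3 of both genotypes left out, 14 guidance genes rose and 29 fell, and 19 and 21 pathway genes. With replicates 1 and 2 of each genotype summed, 4 and 2 guidance genes and 1 and 4 pathway genes did. DESeq2 called 9 guidance genes higher and 17 lower, and 3639 of 16787 genes over all. limma on log2(FPKM + 1) and on log2(FPKM + 0.1) called 3 pathway genes higher in each case; without the FPKM filter it called 4 guidance genes lower, 3 pathway genes higher and 6 lower. Slit1, Unc5d and Sema3d averaged under 1 FPKM and so were not tested under that filter. Without it Slit1 and Unc5d were called by limma and Sema3d was not (adjusted p = 0.154). Among genes tested under the filter, limma lost Epha7 at both pseudocounts and Ephb3 on log2(FPKM + 1). Without the filter, limma kept 8 of the 15 calls. Besides Sema3d it then lost Efnb1, Epha7, Ephb3, Ntn4, Plxnb1 and Sema3c.

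Over all genes, 2705 were called, of which 49.8% were higher. The number was 1169 to 3282 with 1 library left out, 6993 without replicate 3, 484 (58.5% higher) with replicates 1 and 2 summed, 1492 (38.1% higher) and 1558 (37.8% higher) for limma with the FPKM filter at the 2 pseudocounts and 1285 without it. Scaling by library size only gave 2994 calls, 65.7% of them higher, and called 9 guidance genes higher and 9 lower.

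Of the 62 tested guidance genes, 8 had a log2 fold change that changed sign under at least 1 alternative, and 0 of these were among the 15 called. Sema6c ranged from -0.38 to 0.068 with 1 library left out. Efna3 ranged from -0.27 to 0.092 and was 0.24 without replicate 3. Ephb6 ranged from -0.21 to 0.050 and was 0.023 with library size only. Unc5c was 0.021 for limma without the FPKM filter. Efna4 ranged from -0.24 to 0.042 with 1 library left out and was 0.0014 without replicate 3. Slit3 ranged from -0.18 to 0.15 with 1 library left out and was 0.081 with library size only. Robo3 ranged from -0.47 to 0.32 and was 0.42 without replicate 3. Unc5b ranged from -0.19 to 0.030, was 0.12 without replicate 3 and 0.0056 with library size only. The cause was not tested. Over the 62 genes and all alternatives, 952 values kept direction and side of the threshold, 38 lost the threshold, 67 gained it and 19 changed sign.

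Knockout and WT libraries with the same number had deviations correlated at 0.024, 0.098 and 0.079, all under 0.1. Those with different numbers ran from -0.123 to 0.076. So few correlations, of deviations centred within groups of 3, cannot decide whether replicate numbers pair the libraries. Knockout replicates 2 and 3 correlated best with the WT library of their own number, and knockout replicate 1 with WT replicate 2 (0.076). With the replicate block, 8 guidance genes rose and 9 fell, out of 2356 genes called. The block lost Sema3d (adjusted p = 0.118) and added Epha5 (0.0293) among those lower and Sema4d (0.0386) and Sema4g (0.029) among those higher. Fragments were few for Slit1, Unc5d, Dcc, Robo3, Sema4a, Sema3g, Cd72 and Dpysl4, among others.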
